A study of Mus musculus with 6 samples.

Results

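The ERK feedback genes examined here are Dusp4, Dusp5, Dusp6, Spry1, Spry2, Spry4, Etv4, Etv5, Spred1 and Spred2. They were chosen by name and not by a rule on their values, but with earlier results of these data known. They are 10 of 24467 genes in the table of read counts, and all 10 passed the filter on low counts that left 14771 tested genes. The counts come from 6 RNA-seq libraries made from mouse embryonic stem (ES) cells: 2 from clone 2 and 2 from clone 1 of a double knockout (DKO) of Hp1α (Cbx5) and Hp1β (Cbx1), and 2 from 1 control clone. The control is labelled F/F, a usual notation for floxed alleles, with the genotype WT, and how the alleles were deleted is not described in the labels. All 3 groups grew with knockout serum replacement, LIF, the GSK3 inhibitor CHIR99021 at 3 µM and the MEK inhibitor PD184352 at 0.8 µM. No library came from cells without the MEK inhibitor, so its own effect on these genes cannot be measured, and all levels below are those that remained under it. With 1 control clone and 2 deleted clones, effects of genotype and of clone cannot be told apart.

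FGF4 secreted by ES cells binds FGF receptors, and the signal passes through RAS, RAF and MEK to the kinase ERK. Active ERK switches on a set of genes whose products dampen the same pathway: Sprouty (Spry) and SPRED proteins act at the level of RAS and RAF, and dual-specificity phosphatases (Dusp) remove phosphate from ERK. ETV4 and ETV5, ETS-type transcription factors, are induced by the same signal. In ES cells the pathway pushes towards differentiation, and MEK inhibition is used to hold the naive state. Capicua (CIC), a DNA binding repressor that ERK inactivates, keeps several of these genes low when the pathway is off.

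Cbx5 and Cbx1 were lower in every DKO library, at 191 to 205 CPM (read counts scaled to library depth, with TMM factors) and 43.9 to 49.3 CPM, than in the control libraries, at 809 to 813 CPM and 223 to 227 CPM. Which exons were removed is not stated, and counts from exons that remain may be included. The libraries held 24628872 to 34641560 counted reads, and single counts of the feedback genes ran from 119 to 8926. Each of 10 ES cell markers had at least 28.2 CPM in every library. In DKO against control, Nanog was called higher (log2 change 0.33, adjusted p = 0.0281 in edgeR) and Tdgf1 lower (-0.28, adjusted p = 0.0415). Of all tested genes 5.06% were called higher and 3.62% lower. Nanog lies on chromosome 6, whose tested genes had a median log2 change of 0.48 in DKO. Of 8 fibroblast and feeder markers 5 (Col1a2, Col3a1, Dcn, Lum and Postn) stayed at or under 1 CPM in all libraries. The summed CPM of the 3 that were tested was 2.70 to 4.27 in DKO and 7.05 to 9.85 in control libraries. This gap was mostly Acta2, at 0.883 to 2.30 CPM in DKO and 5.12 and 6.91 CPM in control libraries. Col1a1 had 1.16 to 2.13 CPM in DKO and 1.28 and 1.58 CPM in control libraries. Thy1 had 0.179 to 1.04 CPM in DKO and 0.640 and 1.36 CPM in control libraries. For Col1a1 and Thy1 the ranges of DKO and control overlapped. RNA was measured in bulk, so fewer cells of a type and less RNA per cell cannot be told apart.

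Sequences upstream of 3 feedback genes are shown because these genes had lower RNA in clone 2 and hold motifs of factors through which ERK acts. They were picked for both traits, so the pairing of motif and lower RNA is set by that choice. RefSeq (GRCm38.p6) gave windows for 7 of the 10 genes, all but Dusp4, Spry4 and Etv4. Capitals mark motif matches in the 250 bases before the annotated start, written 5′ to 3′ on the strand of the gene.
Dusp6, chr10:99262981-99263230, plus strand: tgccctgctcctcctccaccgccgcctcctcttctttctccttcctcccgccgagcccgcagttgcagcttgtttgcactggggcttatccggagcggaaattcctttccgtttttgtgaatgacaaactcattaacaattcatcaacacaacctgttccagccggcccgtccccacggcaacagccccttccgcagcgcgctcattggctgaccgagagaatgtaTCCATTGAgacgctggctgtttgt
Spry2, chr14:105896820-105897069, minus strand: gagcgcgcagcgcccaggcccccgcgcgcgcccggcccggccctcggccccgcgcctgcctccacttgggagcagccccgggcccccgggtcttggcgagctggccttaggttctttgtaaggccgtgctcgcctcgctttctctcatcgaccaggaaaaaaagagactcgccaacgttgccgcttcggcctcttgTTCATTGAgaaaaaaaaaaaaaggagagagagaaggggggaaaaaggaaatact
Dusp5, chr19:53528895-53529144, plus strand: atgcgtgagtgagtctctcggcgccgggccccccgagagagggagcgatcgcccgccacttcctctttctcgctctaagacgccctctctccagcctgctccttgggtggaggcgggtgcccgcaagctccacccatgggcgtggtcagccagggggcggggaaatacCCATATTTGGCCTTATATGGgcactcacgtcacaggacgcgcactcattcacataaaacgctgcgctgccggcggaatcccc

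Both strands were searched for the CIC octamer (TGAATGAA, TGAATGGA, TCAATGAA or TCAATGGA), the ETS core CCGGAAG, the AP-1 site TGACTCA, the CRE TGACGTCA and the CArG box, which is bound by serum response factor. A CIC octamer was found, reading on the strand opposite to the gene, 24 to 17 bases before the Dusp6 start and 54 to 47 bases before the Spry2 start, and 3.19% of 32851 windows of the same length hold one. Dusp5 holds 2 adjacent CArG boxes, at 82 to 73 and 72 to 63 bases before its start, and 1.47% of windows hold at least 1. No match to any of these motifs lay in the windows of Spry1, Spred1, Spred2 or Etv5. Of these, Spred2 also had lower RNA in clone 2 against control (log2 change -0.41, adjusted p = 0.0157 in edgeR). The ETS core, found in 6.91% of all windows, the AP-1 site, in 4.46%, and the CRE, in 1.55%, had no match in the 8 windows of the 7 genes. The matches do not overlap each other, and they describe these letters only, not binding.

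Levels of the 10 genes were compared per kilobase of the deposited gene width. Etv5 was the highest, at 60.8 to 66.6 CPM per kb across the 6 libraries, and its range did not overlap that of the next gene. Spry4 (32.7 to 60.3 CPM per kb) and Spry2 (29.0 to 47.04 CPM per kb) followed with overlapping ranges. Dusp6 (18.0 to 28.4 CPM per kb) overlapped Etv4 (16.1 to 19.4 CPM per kb), and Spred1 (13.1 to 15.6 CPM per kb) lay below Etv4 without overlap. Dusp5 (6.79 to 9.97 CPM per kb) lay below Spred1 without overlap, Spred2 (6.29 to 9.38 CPM per kb) overlapped Dusp5, and Spry1 (5.13 to 8.13 CPM per kb) overlapped Spred2. Dusp4 was the lowest, at 1.51 to 2.00 CPM per kb, and overlapped no other gene. The feedback genes were spread over the expressed range under MEK inhibition, with mean levels per kb from the 35.0th percentile (Dusp4) to the 94.3rd percentile (Etv5) of tested genes. The order was the same in clone 2 and clone 1, and in the control Spry2 stood above Spry4.

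Taking both clones together, Spry4 was the 1 feedback gene that changed in DKO against control, where it rose. None fell. Over all tested genes 5.06% rose and 3.62% fell in this comparison, so 1 of 10 is a share near the background. At unadjusted p under 0.05, 1 feedback gene was higher (11.9% of tested genes) and 1, Spred2, was lower (11.3%) in edgeR, and DESeq2 and limma-voom gave the same counts, with 1 adjusted call each. Libraries of DKO and control did not overlap for 3 genes, with DKO above for 2 and below for 1, beside 16.9% of tested genes above and 16.9% below. For the 10 genes the median log2 change was -0.06, beside 0.00038 over all tested genes. The test was edgeR's quasi-likelihood test, two-sided, with p-values adjusted by Benjamini and Hochberg over all 14771 genes and a threshold of 0.05. Of all tested genes 748 rose and 535 fell, and with each chromosome set to a median of 0 the split was 294 and 424.

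Spry4 (Entrez 24066, GRCm38 chromosome 18, 38586247 to 38601347) codes for an inhibitor of receptor tyrosine kinase signalling to RAS and RAF. It had 238 and 210.5 CPM in clone 2 and 236 and 277 CPM in clone 1, against 150.0 and 190.2 CPM in the control. All 4 DKO libraries lay above both control libraries, and the control libraries also differed between themselves. The mean was 240.3 ± 27.4 CPM in DKO (SD, n = 4 libraries of 2 clones) and 170.1 ± 28.4 CPM in control libraries (SD, n = 2 libraries of 1 clone). This was a log2 change of 0.50 (SE 0.117) with adjusted p = 0.0256 in edgeR. With counts summed per clone, which leave 3 samples, the log2 change was also 0.50 but the call ended. Against the shared control, the log2 change was 0.40 (SE 0.108, adjusted p = 0.0241) in clone 2 and 0.59 (SE 0.108, adjusted p = 0.00223) in clone 1. Without control replicate 1 the log2 change was 0.34 in DKO and 0.24 in clone 2, and neither call remained. Leaving out clone 2 replicate 1 also ended the call in clone 2. With each chromosome centred, that is with its median change subtracted, the log2 change was 0.43 in DKO (adjusted p = 0.0634) and 0.34 in clone 2 (adjusted p = 0.0586). The 153 tested genes within 10 Mb of Spry4 had a median log2 change of 0.12 in DKO. The rise in clone 1 passed in each of 16 alternatives, with adjusted p up to 0.0309. The clones did not differ in Spry4 past the threshold: clone 2 minus clone 1 gave a log2 difference of -0.19, with a 95% interval from -0.42 to 0.04.

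**Figure D1:**
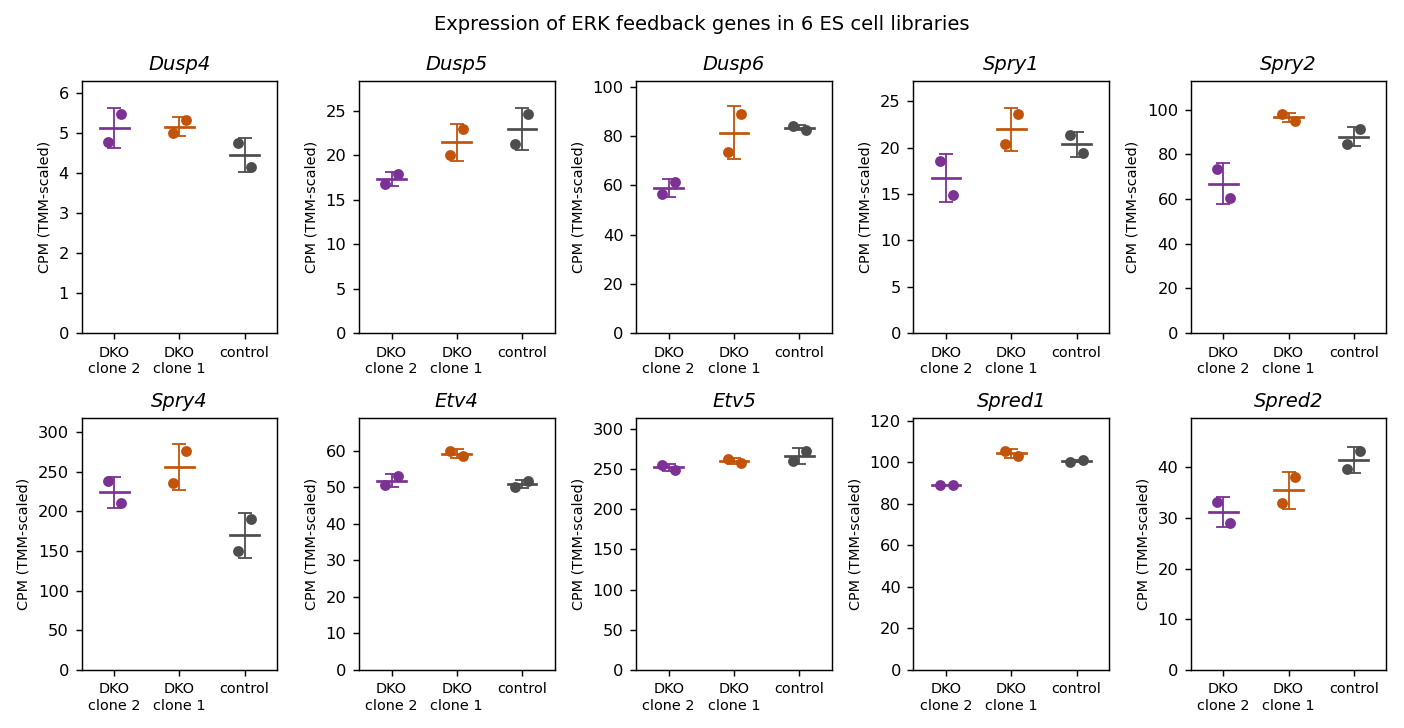
Expression of each feedback gene in CPM (TMM-scaled, axes from 0) in clone 2, clone 1 and control libraries. Points are libraries, horizontal lines are means of 2 libraries and error bars are SD. Spry4 lies at 210.5 CPM or more in every DKO library and at 190.2 CPM or less in the control, while Dusp6 lies at 61.4 CPM or less in clone 2 only.

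In clone 2 against control, the phosphatase genes Dusp5 and Dusp6, the Sprouty gene Spry2 and the SPRED gene Spred2 fell, while Spry4 rose. These 4 of 10 genes that fell stand beside 7.08% of tested genes called lower, and the 1 that rose beside 7.89% called higher. In clone 1 against control, 1 of 10 rose (Spry4, beside 8.79% of tested genes) and none fell (6.47%). At unadjusted p under 0.05, clone 1 had 2 higher (15.0% of tested genes) and 1 lower (13.9%) in edgeR, the same in limma-voom, and 2 higher and none lower in DESeq2. These tools made no adjusted call of a lower gene in clone 1. In clone 2, 1 was higher (14.6%) and 6 were lower (14.4%) at unadjusted p under 0.05 in edgeR, the same in limma-voom, and 1 higher and 5 lower in DESeq2. When control replicate 2 or clone 2 replicate 2 was left out, fewer of the 10 genes were called lower in clone 2. Fewer of all tested genes were called lower then too. The median log2 change of the 10 genes was -0.23 in clone 2 and 0.08 in clone 1, beside -0.00091 and -0.0055 over all tested genes. The 2 comparisons share the control libraries. In clone 2 both libraries lay below both control libraries for 7 of the 10 genes, where 28.4% of tested genes did so, and above them for 2, where 28.4% did so. In clone 1 they lay below for 1 gene (28.0% of tested genes) and above for 5 (27.5%).

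Dusp6 (Entrez 67603, chromosome 10, 99263231 to 99267489) codes for a cytoplasmic phosphatase that acts on ERK. It had 56.3 and 61.4 CPM in clone 2, 73.7 and 89.0 CPM in clone 1, and 84.0 and 82.6 CPM in the control. Both clone 2 libraries lay below the other 4, while the clone 1 libraries stood on either side of the control. Dusp6 fell to 58.8 ± 3.57 CPM in clone 2, against 83.3 ± 1.01 CPM in the control (SD, n = 2 each), 70.6% of the control, with a log2 change of -0.50 (SE 0.0914) and adjusted p = 0.00219 in edgeR. This call passed in each of 16 alternatives, with adjusted p up to 0.0378. In clone 1 the log2 change was -0.03, with a 95% interval from -0.23 to 0.16. A long non-coding gene, Gm34921, overlaps Dusp6 and has no row in the table. The counted strand is not stated, so reads from both cannot be told apart.

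Spry2 (Entrez 24064, chromosome 14, 105891947 to 105896819) codes for a Sprouty inhibitor of receptor tyrosine kinase signalling. It had 73.4 and 60.5 CPM in clone 2, 98.2 and 95.2 CPM in clone 1, and 84.9 and 91.2 CPM in the control. The 3 groups did not overlap: clone 2 was the lowest and clone 1 the highest. Against control, the log2 change was -0.40 in clone 2 (SE 0.0895, adjusted p = 0.0091) and 0.13 in clone 1, where the 95% interval ran from -0.06 to 0.33. The adjusted p of clone 2 became 0.0798 when control replicate 2 was left out and 0.142 when clone 2 replicate 2 was. Genes around Spry2 were shifted too, with a median log2 change of -0.27 in clone 2 and -0.13 in clone 1 over the 25 tested genes within 10 Mb. With each chromosome centred, the log2 change of Spry2 in clone 2 was -0.26 (adjusted p = 0.0835), and with chromosome 14 centred in 2 parts at 40 Mb it was -0.20 (adjusted p = 0.177).

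Dusp5 (Entrez 240672, chromosome 19, 53529145 to 53541809), a nuclear phosphatase of ERK, had 16.8 and 17.8 CPM in clone 2, 19.99 and 22.9 CPM in clone 1, and 21.3 and 24.7 CPM in the control. Clone 2 lay below the other libraries, and clone 1 overlapped the control. The log2 change was -0.41 in clone 2 (SE 0.115, adjusted p = 0.0307) and -0.10 in clone 1, where the 95% interval ran from -0.34 to 0.15. Leaving out control replicate 2 gave an adjusted p of 0.200 for clone 2, leaving out clone 2 replicate 1 gave 0.176, and leaving out clone 2 replicate 2 gave 0.0994.

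Spred2 (Entrez 114716, chromosome 11, 19924442 to 20024026), a membrane-associated inhibitor of RAS to RAF signalling, had 33.2 and 29.1 CPM in clone 2, 32.9 and 38.0 CPM in clone 1, and 39.6 and 43.3 CPM in the control. All 4 DKO libraries lay below both control libraries. The log2 change was -0.41 in clone 2 (SE 0.103, adjusted p = 0.0157) and -0.22 in clone 1 (adjusted p = 0.165). Over both clones it was -0.32 with adjusted p = 0.104, and without clone 1 replicate 2 this became 0.0455. For clone 2 the adjusted p became 0.104 when control replicate 2 was left out and 0.168 when clone 2 replicate 2 was.

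**Figure D2:**
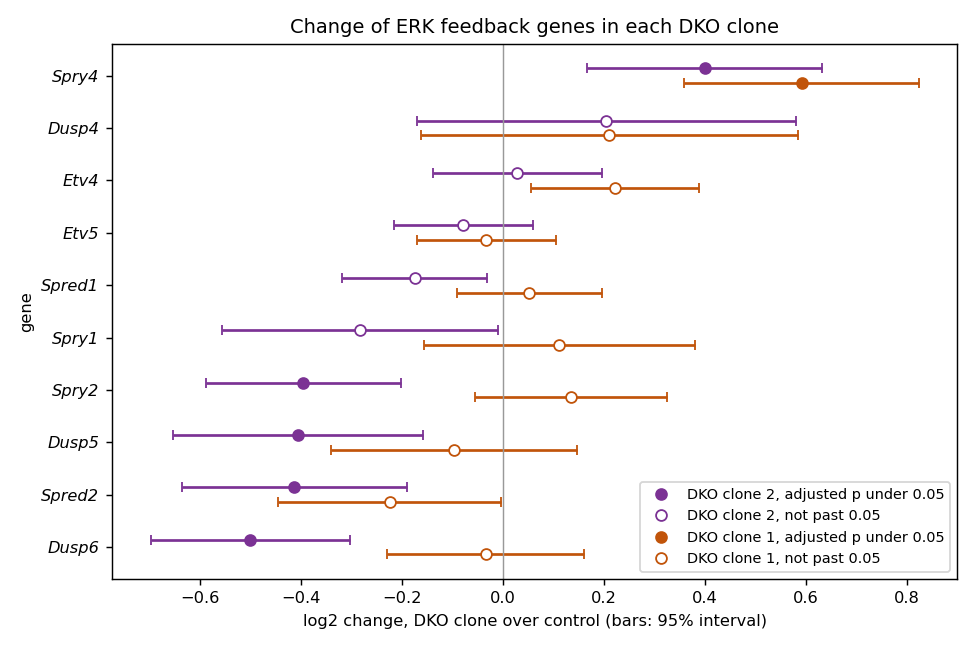
Log2 change of each feedback gene in clone 2 and clone 1, each over the control, from the edgeR fit with 3 groups. Filled points passed an adjusted p of 0.05, and bars are 95% intervals of single genes, not adjusted. Spry4 is filled in both clones, and Dusp6, Spred2, Dusp5 and Spry2 are filled in clone 2 only.

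The other 5 genes did not pass in any comparison with the control. Etv5 (Entrez 104156, chromosome 16, 22381313 to 22439570) had 255 and 249.7 CPM in clone 2, 263 and 258 CPM in clone 1, and 259.9 and 273 CPM in the control, the narrowest range of the 10, 0.13 on the log2 scale. Its change in DKO against control lay within a 95% interval from -0.19 to 0.08 on the log2 scale. Etv4 (Entrez 18612, chromosome 11, 101769747 to 101785310), the other ETS factor of the set, had 50.6 and 53.1 CPM in clone 2, 60.1 and 58.5 CPM in clone 1, and 50.1 and 51.6 CPM in the control. Only clone 1 stood above the control without overlap, by 0.22 on the log2 scale (adjusted p = 0.0714), and with each chromosome centred this became 0.29 (adjusted p = 0.0319).

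Spred1 (Entrez 114715, chromosome 2, 117121071 to 117182279), which brings the RAS inactivator neurofibromin to the membrane, had 88.9 and 89.1 CPM in clone 2, 106 and 103 CPM in clone 1, and 100.1 and 101 CPM in the control. Clone 2 lay below and clone 1 above the control, with log2 changes of -0.18 (adjusted p = 0.0989) and 0.05 (adjusted p = 0.658). Spry1 (Entrez 24063, chromosome 3, 37639947 to 37644599), another Sprouty inhibitor, had 18.5 and 14.9 CPM in clone 2, 20.4 and 23.6 CPM in clone 1, and 21.3 and 19.4 CPM in the control. Its log2 change was -0.28 in clone 2 (adjusted p = 0.157) and 0.11 in clone 1 (adjusted p = 0.607), and chromosome 3 as a whole had a median of 0.08 in clone 2 and 0.29 in clone 1. With each chromosome centred, Spry1 stood at -0.17 in clone 1 (adjusted p = 0.416). Dusp4 (Entrez 319520, chromosome 8, 34807610 to 34819894), a nuclear phosphatase of MAP kinases and the least abundant of the set, had 4.78 and 5.47 CPM in clone 2, 4.99 and 5.32 CPM in clone 1, and 4.75 and 4.15 CPM in the control. All 4 DKO libraries lay above the control, with a log2 change of 0.21 and a 95% interval from -0.14 to 0.56.

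In the direct comparison of the clones the control enters only the estimate of spread, not the difference. All 10 feedback genes had a negative log2 difference in clone 2 against clone 1, where 49.5% of tested genes did, with a median of -0.21 beside 0.0026 over all tested genes. The genes were measured in the same 4 libraries, so they are not independent replicates of this direction. Spry2 (log2 difference -0.53, SE 0.0897, adjusted p = 0.00424) and Dusp6 (-0.47, SE 0.0917, adjusted p = 0.0101) were lower in clone 2, 2 of 10 beside 3.77% of tested genes called lower. None was called higher in edgeR, DESeq2 or limma-voom, beside 2.53% of tested genes in edgeR, and none was higher at unadjusted p under 0.05 in any of these tools (9.57% in edgeR). At unadjusted p under 0.05, 6 were lower in edgeR, beside 11.0% of tested genes. Both clone 2 libraries lay below both clone 1 libraries for 7 of 10 genes, where 25.7% of tested genes did, and above them for none, where 25.5% did. Dusp4, at -0.0064, was near 0, and it stood above 0 with each chromosome centred (0.00029), without clone 1 replicate 2 (0.04) and without clone 2 replicate 1 (0.09).

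The call on Dusp6 between the clones was lost without clone 1 replicate 2 (adjusted p = 0.0842) and without clone 2 replicate 1 (0.107), and that on Spry2 without clone 2 replicate 2 (0.0582). Spry2 kept its call with chromosome 14 centred in 2 parts, at -0.37. Some marker genes moved with this difference. The summed CPM of the 7 tested formative and primed markers was 326 and 324 in clone 2, 367 and 411 in clone 1 and 338 and 367 in control libraries. That of the 7 tested primitive endoderm markers was 34.1 and 36.6 in clone 2, 41.2 and 42.03 in clone 1 and 39.3 and 41.1 in control libraries. The first sum was mostly Dnmt3b, at 258 and 261 CPM in clone 2 and 296 and 338 CPM in clone 1, the 1 of these 7 that was called lower between the clones in edgeR (-0.29, adjusted p = 0.0372). The second was mostly Lama1, at 28.2 and 31.6 CPM in clone 2 and 35.1 and 35.5 CPM in clone 1, and no primitive endoderm marker passed between the clones in edgeR, DESeq2 or limma-voom, with 2 lower and 0 higher at unadjusted p under 0.05 in edgeR. Not all markers of these lists went down in clone 2: Pou3f1 stood at 0.69 and Pdgfra at 0.30 against clone 1, without passing. In DKO against control, the formative and primed marker Zic2 was called higher in edgeR (0.33, adjusted p = 0.0478). Sox3 (-1.47, adjusted p = 0.0477) and Cdh2 (-1.01, adjusted p = 0.0292) were called lower. DESeq2 called 1 marker of this list lower. Of the feeder markers, Acta2 had 0.883 and 1.01 CPM in clone 2 and 2.19 and 2.30 CPM in clone 1 (-1.24, adjusted p = 0.0191 in edgeR). Thy1 (1.04) and Col1a1 (0.19), the other tested feeder markers, stood higher in clone 2 than in clone 1, without passing. Otx2, Pou3f1, Sox3, Gata4, Gata6, Sox17 and Foxa2 stayed at or under 1 CPM in every library. The part of these markers in the result was not tested.

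**Figure D3:**
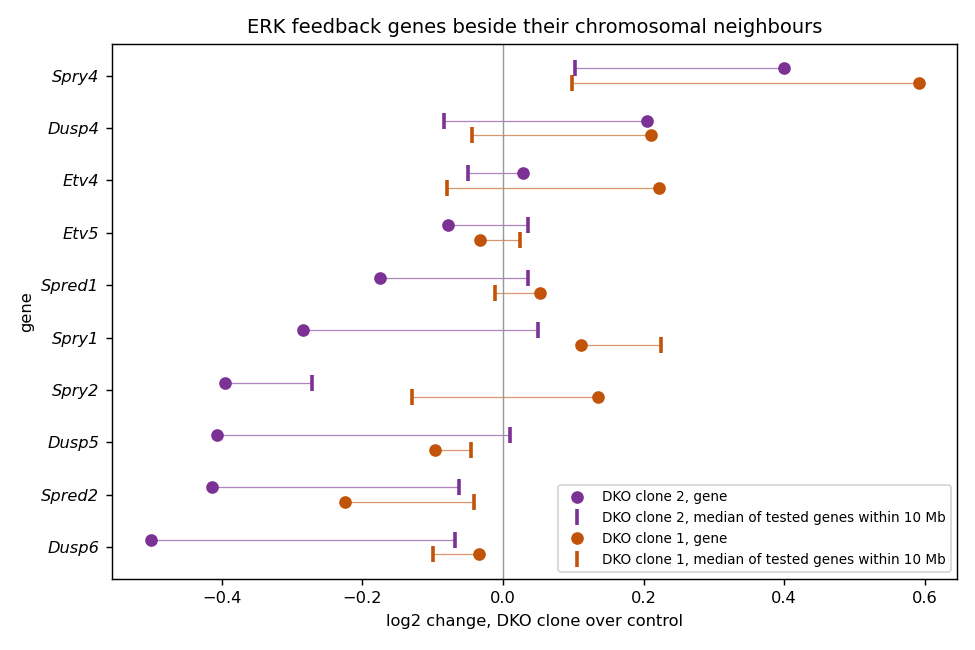
Log2 change of each feedback gene (points) in clone 2 and clone 1 over the control, beside the median of the other tested genes within 10 Mb (ticks, from which the median change of every tested gene was subtracted). The neighbours of Spry2 lie at -0.27 in clone 2 and -0.13 in clone 1, those of Dusp6 at -0.07 and -0.10, and those of Spry1 at 0.05 and 0.22.

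The profiles over the 6 libraries, as log2 CPM centred on the mean of each gene, were compared by their root mean square difference. Dusp6 and Dusp5 were closest to each other (0.0973), as were Spry1 and Spry2 (0.119) and Etv5 and Spred1 (0.0770). Spry4 stood apart: its closest gene, Etv4, was 0.224 away, and it was the farthest gene from 7 of the other 9. The mean profile of the 10 genes was -0.11 and -0.17 in clone 2, 0.06 and 0.17 in clone 1 and -0.0052 and 0.05 in control libraries. Among 9970 other genes averaging at least 5 CPM, the 5 profiles closest to this mean over the 6 libraries were those of Zfp473 (0.0210), Kif13a (0.0212), Gtse1 (0.0248), Ptpn23 (0.0279) and Mcoln1 (0.0307).

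Of 65 other genes of the pathway 62 were tested, and in DKO against control 4 rose, 1 fell and 57 missed the threshold. Their median log2 change was -0.06. Over all tested genes 5.06% rose and 3.62% fell in this comparison. At unadjusted p under 0.05, 11.9% of all tested genes were higher and 11.3% were lower in edgeR. Among the FGF ligands none of 6 passed in edgeR, DESeq2 or limma-voom, and 1 was lower at unadjusted p under 0.05 in edgeR and limma-voom, against 0 in DESeq2. Fgf4, the ligand that ES cells make themselves, had 258 ± 12.0 CPM in DKO and 255 ± 18.0 CPM in control libraries (SD, n = 4 and 2). Among 5 FGF receptors 3 were lower and 0 higher at unadjusted p under 0.05 in edgeR, DESeq2 and limma-voom. In edgeR these were Fgfr2 (log2 change -0.28), Fgfr3 (-1.10) and Fgfrl1, and of them Fgfrl1 alone passed the adjusted threshold. Fgfr1, the one with the most reads, had 144 ± 8.05 CPM in DKO and 136 ± 8.75 CPM in control libraries and did not pass. Fgfrl1, a receptor-like protein without a kinase domain, fell to 3.86 ± 0.584 CPM in DKO, against 7.07 ± 1.52 CPM in control libraries (log2 change -0.87, adjusted p = 0.0192).

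Of 9 genes listed for the kinase core, which passes the signal to ERK, 2 rose in DKO (5.06% of tested genes), none fell (3.62%) and 7 did not pass. At unadjusted p under 0.05 edgeR, DESeq2 and limma-voom each had 3 higher and 0 lower, beside 11.9% and 11.3% of tested genes in edgeR. Braf, which codes for a kinase that phosphorylates MEK, had 81.1 ± 2.46 CPM in DKO and 61.6 ± 2.05 CPM in control libraries (log2 change 0.40, adjusted p = 0.00651). Braf lies on chromosome 6, whose 709 tested genes had a median log2 change of 0.48 in DKO, and with each chromosome centred it stood at -0.08 (adjusted p = 0.537). Map2k2 on chromosome 10, which codes for a MEK kinase, had 60.8 ± 4.55 CPM in DKO and 47.9 ± 2.93 CPM in control libraries (0.34, adjusted p = 0.0398), and Map2k1, the other MEK gene, had 104 ± 8.66 CPM in DKO and 95.4 ± 5.91 CPM in control libraries and did not pass.

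Shc1 on chromosome 3, the 1 of 8 receptor adaptor genes that passed, had 65.0 ± 3.09 CPM in DKO and 49.4 ± 2.82 CPM in control libraries (0.40, adjusted p = 0.0128), and 0.21 (adjusted p = 0.168) with chromosomes centred. Among 11 genes for DNA binding proteins under ERK control and their partners 1 rose. This was Atxn1l, whose product stabilises CIC, with 34.3 ± 3.90 CPM in DKO and 21.1 ± 0.566 CPM in control libraries (0.70, adjusted p = 0.00445). Cic itself had 85.4 ± 6.58 CPM in DKO and 83.3 ± 2.44 CPM in control libraries and did not pass. None of 12 other inhibitors of the pathway passed in edgeR, DESeq2 or limma-voom in DKO against control, and 2 were higher and 1 was lower at unadjusted p under 0.05 in edgeR. None of 11 other ERK target genes passed in these tools, and 1 was higher and 3 were lower at unadjusted p under 0.05 in edgeR. Of all tested genes 11.9% were higher and 11.3% lower at this unadjusted threshold in edgeR. None of the 5 calls on pathway genes in DKO, those on Fgfrl1, Shc1, Braf, Map2k2 and Atxn1l, remained without control replicate 1 (adjusted p 0.0613 to 0.1396) or control replicate 2 (0.0593 to 0.290). The log2 change of Atxn1l in DKO was then 0.67 and 0.73, and against the control Atxn1l passed in each of 16 alternatives in clone 2 (adjusted p up to 0.0213) and in clone 1 (up to 0.00176). The call on Map2k2 also ended without clone 1 replicate 1 (0.0557), clone 2 replicate 1 (0.0615) or clone 2 replicate 2 (0.0630), and with the replicate number as a block (0.0795). With counts summed per clone, which leave 3 samples, all 5 calls ended.

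**Figure D4:**
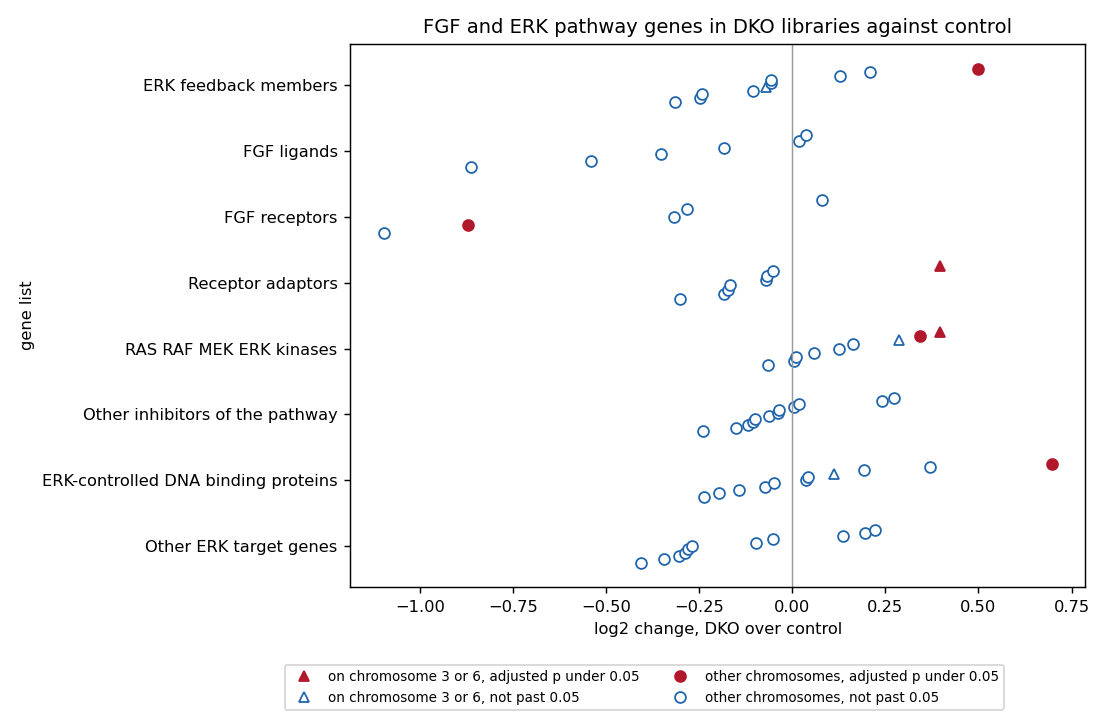
Log2 change in DKO over control of each tested gene of the feedback set and of the 7 pathway lists, by list. Red filled symbols passed an adjusted p of 0.05 and triangles lie on chromosome 3 or 6. Atxn1l at 0.70 and Spry4 at 0.50 are the 2 highest points, and Braf and Shc1, both at 0.40, are filled triangles.

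In clone 2 against control, 3 of the 11 other ERK target genes fell (7.08% of tested genes) and 1 rose (7.89%). In clone 1 none passed in edgeR, DESeq2 or limma-voom, and 1 was higher (15.0%) and 1 lower (13.9%) at unadjusted p under 0.05 in edgeR. In DESeq2 the same list had 3 lower and 0 higher in clone 2. Phlda1, a growth factor-induced gene, had 23.4 CPM in clone 2, 37.6 CPM in clone 1 and 37.6 CPM in the control. It fell in clone 2 by 0.69 on the log2 scale (adjusted p = 7.3e-04), and clone 2 also stood below clone 1 by 0.69 (adjusted p = 0.0028). Both calls on Phlda1 passed in each of 16 alternatives. Junb and Ier2, immediate early genes, stood at -0.46 (adjusted p = 0.0278) and -0.35 (0.0407) in clone 2. Ccnd1, which codes for cyclin D1, stood at 0.23 (0.0435). The calls on Junb, Ier2 and Ccnd1 each ended when any 1 of the control or clone 2 libraries was left out, with adjusted p from 0.082 to 0.286. That on Ccnd1 passed in 7 of 16 alternatives, and also ended without clone 1 replicate 1 (0.0547), without clone 1 replicate 2 (0.0563), with no low count filter (0.0514), in DESeq2 (0.0519) and with the replicate block (0.0581). That on Ier2 passed in 8 of 16.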

How the data were processed

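Reads were aligned with STAR 2.5.0a to mm10 (GRCm38), per the submitters' processing notes. The authors deposited raw read counts per Entrez gene and a gene width. The counting tool, annotation release, counted strand and handling of multi-mapped reads were not given in the sources used here; related genes may share reads. Of 24467 IDs, 24437 matched the RefSeq table (GRCm38.p6), which gave symbols and positions, and the other 30 held 0.389 to 1.62% of a library's reads. The 1.62% was in control replicate 1, and the other libraries held up to 0.744%.

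The fits used edgeR 4.0.16 in R 4.3.3: filterByExpr with 3 groups, TMM, and quasi-likelihood F tests. DKO against control used genotype alone (4 residual degrees of freedom), and the clone comparisons used 3 groups (3 residual degrees of freedom). Standard errors come from the F statistic. The 2 libraries of a group differed by more than sampling noise. The chi-square per gene was 12.5 in clone 2, 11.8 in clone 1 and 44.4 in the control, which enters every comparison with the control. Nothing says that they came from separate cultures, so p-values measure only the spread between these libraries, which may be technical. The fits were also run on simulated counts with known changes, drawn without clone effects or chromosome shifts. That run cannot tell how often differences between clones lead to calls.

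Members, gene lists, promoter motifs and 10 Mb windows were chosen with earlier results of these data known. All 10 members are named. Some genes of the pathway lists are not reported here and are left out of the counts per list. Of the pathway lists, the rule names genes past the threshold in the genotype fit and up to 4 more per list with the smallest p; the others named were chosen after their values were seen. Alternatives were RLE and library size scaling, other filters, DESeq2 1.42.0, limma-voom (limma 3.58.1), a replicate block, centred chromosomes, fewer chromosomes, summed counts, clones alone, and leaving out each library.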

Additional observations from a re-analysis of the deposited data

Results flagged for a closer look

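A test of the difference between the clones set apart 7 genes of the feedback set and its pathway. Of the feedback genes, Spry2 (log2 change of clone 2 over clone 1 -0.53) and Dusp6 (-0.47) were lower in clone 2. Of the other pathway genes, Phlda1 (-0.69), Frs3 (-0.71), an adaptor of FGF receptors, and Etv3 (-0.48), an ETS repressor on chromosome 3, were lower in clone 2, and Fgf10 (0.84) and Pebp1 (0.45), which codes for a RAF inhibitor, were higher. The 5 pathway genes are 2 higher and 3 lower of 62 tested, beside 2.53% and 3.77% of all tested genes. In edgeR the adjusted p was 0.00424 for Spry2, 0.0101 for Dusp6, 0.0028 for Phlda1, 0.0233 for Frs3, 0.00941 for Etv3, 0.0218 for Fgf10 and 0.0432 for Pebp1. With each chromosome centred Etv3 stood at -0.28 (adjusted p = 0.112). When 1 of the 4 DKO libraries was left out, the calls on Etv3, Frs3, Fgf10 and Pebp1 ended in at least 1 case each, with adjusted p from 0.0539 to 0.201. The call on Pebp1 also ended in limma-voom (0.0567) and without chromosomes 3, 6 and Y (0.0520).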

How the results depend on the processing

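Over the 10 feedback genes and 4 comparisons, 621 of 666 values under an alternative kept their direction and their side of the threshold, 20 lost a call, 8 gained one and 17 changed sign. In each case of a changed call or sign below, the cause was not tested. Each chromosome was centred, also with chromosome 14 in 2 parts (chosen after seeing the data). Feedback genes called higher were then 0 in DKO, 2 in clone 1 (Spry4 and Etv4) and 0 in clone 2. None was called lower in DKO or clone 1. In clone 2 the calls on Spry2 and Spry4 ended, and 3 of the 5 calls remained, all on lower genes. Of all tested genes 294 were called higher in DKO, 722 in clone 1 and 767 in clone 2 when centred. With chromosome 14 in 2 parts the count in clone 2 was 741. The log2 change of Braf then turned to -0.084 in DKO, -0.071 in clone 1 and -0.092 in clone 2. Spry1 turned to -0.17 in clone 1 and Dusp4 to 0.00029 in clone 2 over clone 1. Genes called in DKO against control, 1283 of all tested, were 718 when centred, 719 with chromosome 14 in 2 parts and 655 without chromosomes 3, 6 and Y, which left 1340 in clone 1 and 1449 in clone 2. No low count filter gave 1453 genes between the clones, against 930. Clone 1 alone with the control gave 2014 genes and positive changes of Spry1 (0.11), Spry2 (0.14) and Spred1 (0.055) and a change of Fgf4 of -0.0064. Clone 2 alone gave 2273 genes, 4 feedback genes lower and a change of Cic of -0.051. Counts summed per clone, which leave 3 samples, gave 2 genes and 0 feedback genes higher.

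Leaving out 1 library at a time, genes called ranged from 246 to 1186 in DKO, 1292 to 2051 in clone 1, 1123 to 2302 in clone 2 and 270 to 934 between the clones. Feedback genes called higher ranged from 0 to 1 and lower from 0 to 1 in DKO, from 0 to 1 and 1 to 4 in clone 2, and lower from 1 to 2 between the clones. A group left with 1 library was assumed to vary like the others. Changes of sign came with ranges in DKO of -0.18 to 0.038 for Spry1, -0.21 to 0.017 for Spry2, -0.051 to 0.094 for Fgf4 and -0.0088 to 0.078 for Cic. In clone 1 they were -0.20 to 0.017 for Dusp5, -0.18 to 0.096 for Dusp6, -0.00026 to 0.22 for Spry1 and -0.066 to 0.0079 for Etv5, in clone 2 -0.0044 to 0.061 for Etv4, and between the clones -0.11 to 0.086 for Dusp4.

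The replicate numbers stand for no stated pairing. Deviations from the group means correlated at 0.153 for clone 1 and control, -0.304 for clone 2 and control and 0.102 for clone 2 and clone 1, over 9985 genes. With the replicate block, 928 genes were called in DKO, 2229 in clone 1, 2146 in clone 2 and 889 between the clones, and the counts of called feedback genes stayed at 1 higher in DKO, 1 higher in clone 1, 1 higher and 4 lower in clone 2 and 2 lower between the clones. Dusp4, with 119 to 163 reads per library, had the widest intervals of the 10 in both comparisons of a clone with the control.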
